A study of Homo sapiens with 12 samples.

Results

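The tissue kallikreins are secreted serine proteases encoded side by side on chromosome 19. The 8 kallikrein genes described here, KLK1, KLK2, KLK3, KLK4, KLK5, KLK10, KLK11 and KLK15, were taken by name from the 54127 genes counted in the series. No cutoff on their values was used, but they were chosen with earlier results of these data known. RNAseq had been performed on C4-2 cells, an androgen-responsive and castration-resistant line derived from LNCaP prostate cancer cells, grown in RPMI medium with 10% serum. The DMSO group (6 libraries) received vehicle, and the PBKi group (6 libraries) received HI-TOPK-032, which inhibits the PDZ binding kinase PBK, at 1 µM according to the labels and for 6 h according to the methods of the study. All libraries came from the same cell line, and the labels do not say whether replicates were separate cultures, so p-values measure only the spread between these libraries. The study itself had picked KLK2 and KLK3 as changed in these samples, and their direction here is therefore not independent evidence.

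KLK3 encodes prostate-specific antigen, the blood marker used to follow prostate cancer. Together with KLK2 and KLK4 it is made by luminal cells of the prostate, and KLK2 and KLK3 are textbook androgen-induced genes, with androgen response elements in their promoters and enhancers. The proteases are secreted as inactive precursors, are switched on by other proteases including other kallikreins, and are held in check by serpins and Kunitz-type inhibitors. In semen KLK3 cuts the semenogelins, which liquefies the clot.

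The promoter sequences of the tested genes with a RefSeq window, KLK3, KLK2, KLK4 and KLK15, are shown as a description. Any part of their sequence matches in the changes described below was not tested. Each sequence covers the 250 bases before the transcription start of a RefSeq gene, read 5′ to 3′ along the gene, and was placed by exact match in GRCh37. The windows are chr19:51357921-51358170 for KLK3 and chr19:51376445-51376694 for KLK2 on the plus strand, and chr19:51414652-51414901 for KLK4 and chr19:51336831-51337080 for KLK15 on the minus strand. An androgen response element is an inverted repeat of a 6-base core with 3 bases between, and the loose pattern searched took NGNACA as the core and left the first base of the second core free. Capitals in KLK3 and KLK2 mark its match, and capitals in KLK4 mark GGAACA alone. Nothing is marked in KLK15.
KLK3: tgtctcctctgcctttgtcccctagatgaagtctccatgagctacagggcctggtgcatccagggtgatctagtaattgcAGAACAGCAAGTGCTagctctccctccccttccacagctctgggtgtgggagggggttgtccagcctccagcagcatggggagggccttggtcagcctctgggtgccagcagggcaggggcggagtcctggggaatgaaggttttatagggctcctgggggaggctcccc
KLK2: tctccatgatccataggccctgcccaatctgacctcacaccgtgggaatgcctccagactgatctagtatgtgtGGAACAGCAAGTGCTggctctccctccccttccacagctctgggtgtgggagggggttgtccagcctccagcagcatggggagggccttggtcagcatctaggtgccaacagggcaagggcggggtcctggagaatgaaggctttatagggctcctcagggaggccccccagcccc
KLK4: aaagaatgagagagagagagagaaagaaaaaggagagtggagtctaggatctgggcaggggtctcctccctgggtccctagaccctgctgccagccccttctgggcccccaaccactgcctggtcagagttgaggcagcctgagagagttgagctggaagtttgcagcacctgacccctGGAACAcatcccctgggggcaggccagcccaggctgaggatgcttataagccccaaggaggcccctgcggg
KLK15: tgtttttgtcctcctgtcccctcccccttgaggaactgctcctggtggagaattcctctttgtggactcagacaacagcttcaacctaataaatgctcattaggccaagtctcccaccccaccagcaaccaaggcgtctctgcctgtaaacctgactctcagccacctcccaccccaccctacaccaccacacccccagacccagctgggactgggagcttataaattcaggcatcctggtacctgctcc

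Over 238 aligned bases the KLK3 and KLK2 promoters were identical at 205, or 86.1%. The match in KLK3 was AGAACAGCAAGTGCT, from -170 to -156 counted back from the base before the start, and in KLK2 it was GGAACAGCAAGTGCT from -176 to -162. These matches differ by 1 substitution, A1G, counted from their first base and with the KLK3 base first. Searched on both strands, the pattern was in 2 of 11 windows of these genes, those of KLK2 and KLK3, and in 1.78% of 35116 promoter windows of the same length. Both matches have A at the base left free, where the inverted core has T, so the pattern without that freedom would match neither. The 2 promoters are largely alike, so their matches are not separate observations, and this count is no test of the genes. The shorter AGAACA, which the loose pattern can contain, was in 12.4% of all windows and among these genes in KLK3. GGAACA, which it can also contain, was in 11.6% of all windows and among these genes in KLK2 and, from -71 to -66, in KLK4. TATAAA was in 10.7% of all windows and lay in KLK15 from -30 to -25, and on the opposite strand in KLK2 from -34 to -29 and in KLK3 from -28 to -23. A full inverted repeat of AGAACA with 3 bases between was in 1 of all windows and in none of these genes. Such matches describe letters in these windows only, and 7 of the 8 genes had a RefSeq window, the exception being KLK1.

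In DMSO the locus was dominated by 1 gene. Reads on the 16 kallikrein genes of the locus, the 8 above and 8 others, made up 0.306% to 0.371% of all reads on genes in DMSO libraries (median 0.356%), and KLK3 took 83.6% to 84.9% of them. In PBKi libraries the share of the locus was 0.0883% to 0.167% (median 0.142%), below every DMSO library, and KLK3 took 81.3% to 83.4% of it. The 95% binomial intervals of the locus shares (Wilson) had half-widths of at most 0.00348 percentage points, and cover counting error only. Levels of different genes were compared in CPM (read counts scaled to the size of the library, with TMM factors) per kb of the canonical transcript. In DMSO these were 2021 ± 146 for KLK3, 163 ± 18.8 for KLK2, 56.5 ± 3.55 for KLK4, 6.40 ± 0.439 for KLK15 and 1.32 ± 0.416 CPM per kb for KLK1 (SD, n = 6), and no neighbours in this order overlapped. In PBKi the order of the means was the same, with 773 ± 165 CPM per kb for KLK3, 58.7 ± 13.3 for KLK2, 49.6 ± 4.76 for KLK4, 4.19 ± 0.804 for KLK15 and 1.02 ± 0.195 for KLK1 (SD, n = 6). There the libraries of KLK2 (33.2 to 71.8 CPM per kb) and KLK4 (40.5 to 53.2) overlapped. Dividing by the length of all annotated exons instead put KLK4 above KLK2 in PBKi, at 35.1 against 26.2 CPM per kb, so the order of this pair depends on the length used.

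PBKi was compared with DMSO to ask how the kallikrein transcripts respond when the kinase is inhibited. Of the 8 genes, 5 had enough reads to be tested (at least 10 counts in at least 6 libraries), and 4 of these, KLK3, KLK2, KLK15 and KLK4, fell in PBKi at an adjusted p under 0.05. None rose. The groups did not overlap for these 4 genes, as they did not, with PBKi lower, for 9.68% of all genes tested. Across the 14505 genes tested, 21.5% fell, 20.1% rose and 41.7% did either, so a call alone was common in this comparison. The size of the change was less common for KLK2, KLK3 and KLK15. A log2 fold change as low as that of KLK15 was reached by 2.92% of the genes tested, and one as low as that of KLK3 by 0.145%. KLK4 lay near the lower quartile of all genes tested, which was -0.19, at rank 3725 of 14505 from the lowest. The median log2 fold change of the 5 genes was -0.61, against -0.01 for all genes tested. The fall ran from deep in KLK2 and KLK3 to slight in KLK4.

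KLK3 (ENSG00000142515, chr19:51358171-51364020, plus strand) gave 3046, 3089, 2677, 3102, 2696 and 3145 CPM in DMSO replicates 1 to 6. In PBKi replicates 1 to 6 it gave 1360, 1086, 696, 1207, 1333 and 1105 CPM. Every PBKi library lay far below every DMSO library, and the lowest was PBKi replicate 3. The means were 2959 ± 214 CPM in DMSO and 1131 ± 241 CPM in PBKi (SD, n = 6 each), a fall of 2.62-fold. This gave a log2 fold change of -1.39 (SE, the standard error, 0.119, adjusted p = 7.68e-08). Replicates 1 to 3 alone gave -1.48 and replicates 4 to 6 alone -1.29 on the same scale. Counts per library ran from 14960 to 74245, so counting error was small beside the spread between libraries. No other gene with an annotated position overlaps KLK3 or any other of the 8 genes.

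KLK2 (ENSG00000167751, chr19:51364824-51383823, plus strand), whose protein hK2 can activate the KLK3 precursor, also fell. Its values were 474, 517, 389, 467, 408 and 514 CPM in DMSO replicates 1 to 6, and 203, 173, 93.9, 169.6, 184 and 173 CPM in PBKi replicates 1 to 6. Again the groups did not overlap and PBKi replicate 3 was the lowest. The means were 462 ± 53.1 and 166 ± 37.5 CPM (SD, n = 6 each), a fall of 2.78-fold. On the log2 scale the fold change was -1.48 (SE 0.134, adjusted p = 1.52e-07), and it was -1.56 for replicates 1 to 3 and -1.40 for replicates 4 to 6. The annotated gene starts close to the end of KLK3, upstream of the RefSeq start used for the promoter above. KLK2 and KLK3 are close paralogs. Of the 1425 stretches of 40 bases (the read length) in the canonical KLK3 transcript, 30, or 2.11%, also occur in a transcript of another kallikrein gene, most often KLK2. Within 2 mismatches of any other kallikrein transcript the share was 11.4%, and reads with several alignments are not in these counts.

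KLK15 (ENSG00000174562, chr19:51328545-51340469, minus strand), whose product can activate the KLK3 precursor, was expressed at a low level and fell less. The DMSO libraries lay between 7.90 and 9.63 CPM (median 8.64) and the PBKi libraries between 4.15 and 7.0 CPM (median 5.85). All PBKi libraries lay below all DMSO libraries. The means were 8.69 ± 0.595 and 5.69 ± 1.09 CPM (SD, n = 6 each), from 68 to 230 counts per library. Its log2 fold change was -0.61 (SE 0.117, adjusted p = 0.00044), or -0.82 for replicates 1 to 3 and -0.44 for replicates 4 to 6. As with KLK2, the annotated gene starts upstream of the RefSeq start used for the promoter above. The KLK15 window (chr19:51336831-51337080) thus lies inside the annotated gene, and the bases before the annotated start were not searched.

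KLK4 (ENSG00000167749, chr19:51409607-51414651, minus strand), known as the enamel matrix protease and also made in prostate, changed little. The DMSO libraries lay between 75.9 and 87.6 CPM (median 77.7) and the PBKi libraries between 57.3 and 75.4 CPM (median 72.3). The groups did not overlap, but the lowest DMSO and the highest PBKi library were almost level. The means were 80.0 ± 5.02 and 70.3 ± 6.73 CPM (SD, n = 6 each), and the log2 fold change was -0.19 (SE 0.0661, adjusted p = 0.0312). This call rested on single libraries, and was lost in 4 of the 12 fits that left 1 out: the adjusted p was 0.0783 without DMSO replicate 4, 0.0579 without DMSO replicate 5, 0.0576 without PBKi replicate 2 and 0.0701 without PBKi replicate 3, and the log2 fold change without the last was -0.13. Fitted alone, replicates 1 to 3 gave -0.18 (adjusted p = 0.0711) and replicates 4 to 6 gave -0.19 (adjusted p = 0.107). A fit with replicate number as a block gave -0.19 (adjusted p = 0.00606), but whether same-numbered libraries are pairs is not known.

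KLK1 (ENSG00000167748, chr19:51322402-51327043, minus strand), the tissue kallikrein that releases kinin from kininogen, was close to the limit of detection with 9 to 29 counts per library. The DMSO libraries lay between 0.900 and 1.88 CPM (median 1.03) and the PBKi libraries between 0.676 and 1.11 CPM (median 0.867), so the groups overlapped. A log2 fold change of -0.37 (SE 0.21) had an adjusted p of 0.172, and it was -0.19 without DMSO replicate 2, the highest library. A fall of KLK1 was not detectable at this depth.

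**Figure D1:**
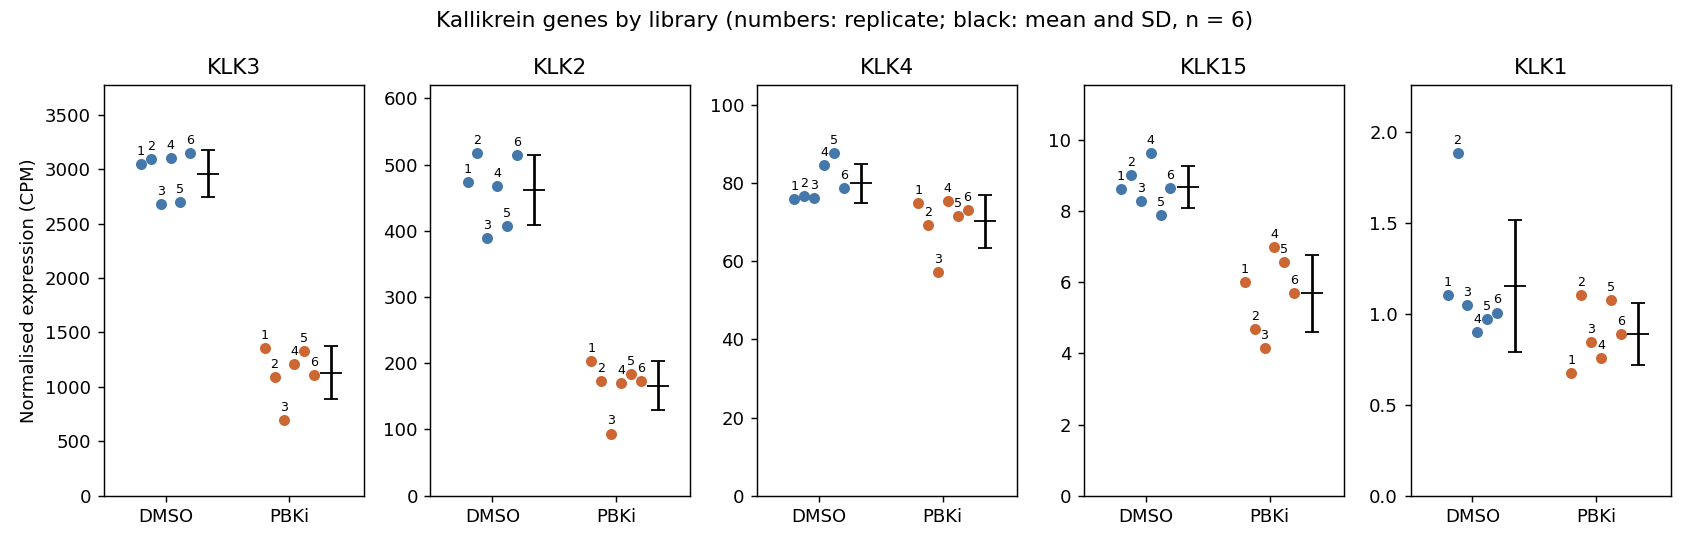
Normalised expression of the 5 tested kallikrein genes in CPM (vertical axes from 0) in each DMSO (blue) and PBKi (orange) library, with the replicate number beside each point and the mean and SD in black. All PBKi points of KLK3 (696 to 1360 CPM) and KLK2 (93.9 to 203 CPM) lie far below the DMSO points, those of KLK15 and KLK4 lie just below, and those of KLK1 overlap.

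The remaining genes were almost silent. KLK5, KLK10 and KLK11, proteases of the skin and other lining epithelia, had 3, 6 and 2 reads summed over all DMSO libraries and 0, 7 and 1 over all PBKi libraries, of 98498055 and 100687162 reads on genes. A count of 0 allows up to 0.0298 CPM, here without TMM factors, for KLK5 over the PBKi group. No difference was detectable at this depth for these 3 genes, which were not tested. The 8 other genes of the locus, KLK6, KLK7, KLK8, KLK9, KLK12, KLK13, KLK14 and KLKP1, did not pass the filter either. KLK7 had 47 reads in DMSO and 61 in PBKi, and KLK14 had 53 and 39. KLK12 had 13 and 8 reads, KLK13 had 3 and 1, KLK8 had 2 and 0, KLK9 had 1 and 1, and KLK6 had 0 and 1. The pseudogene KLKP1 lies between KLK2 and KLK4 and had 80 reads in DMSO and 32 in PBKi. Its DMSO libraries (0.549 to 1.06 CPM) and PBKi libraries (0.148 to 0.484 CPM) did not overlap.

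To ask whether the tested genes changed by unequal amounts, the reads of each were set against the KLK3 reads of the same library, a ratio that does not depend on scaling between libraries. It rests on the same reads as the fold changes above and is not separate evidence. For KLK4 there were 27.0 reads per 1000 KLK3 reads in DMSO and 63.3 in PBKi. The log2 ratio of the DMSO libraries lay between -5.33 and -4.94 (median -5.26) and that of the PBKi libraries between -4.22 and -3.60 (median -3.99), without overlap. It was higher in PBKi by 1.23 (SE 0.11), and the two-sided exact permutation test gave p = 0.00216, the smallest it can give with 6 against 6. KLK15 rose relative to KLK3 from 2.95 to 5.09 reads per 1000, with log2 ratios from -8.50 to -8.33 in DMSO and from -7.84 to -7.38 in PBKi. This was a difference of 0.79 (SE 0.0829, exact p = 0.00216), also without overlap. KLK1, with few reads, was higher relative to KLK3 by 1.08 (SE 0.236, exact p = 0.00433), although the groups overlapped. KLK2 kept close to KLK3, at 155 reads per 1000 in DMSO and 146 in PBKi. The log2 ratio of KLK2 to KLK3 ranged from -2.78 to -2.58 in DMSO and from -2.89 to -2.65 in PBKi, a difference of -0.09 (SE 0.0511, exact p = 0.117). In all 4 ratios were tested and these p-values are not adjusted. The ratios of KLK4 and KLK15 thus differed between the groups, and that of KLK2 did not pass the test, which does not show that KLK2 and KLK3 changed alike. Without PBKi replicate 2 the difference for KLK2 was -0.11 (exact p = 0.0476). Compared by replicate number, the KLK2 ratio was lower in PBKi in each of the 6 pairs. An exact test by sign changes of these differences gave p = 0.0312, the smallest it can give with 6 pairs.

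**Figure D2:**
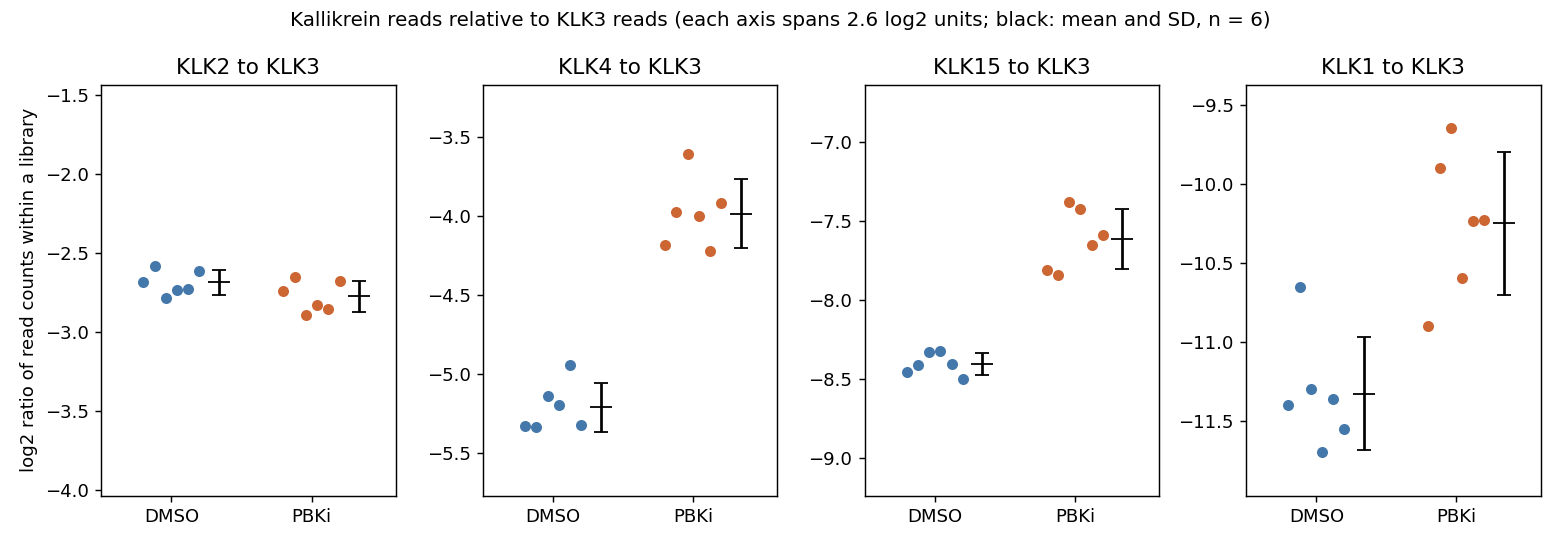
The log2 ratio of the reads of KLK2, KLK4, KLK15 and KLK1 to KLK3 reads in each library, with DMSO in blue, PBKi in orange and the mean and SD in black; all vertical axes span the same length. The ratio rose in PBKi without overlap for KLK4 (by 1.23) and KLK15 (by 0.79), whereas for KLK2 the groups overlapped.

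Libraries that were low in KLK3 tended to be low in KLK2 within a group. Taking log2 CPM as deviations from the group means over the 12 libraries, with every gene of a library measured at the same depth, Pearson's r with KLK3 was 0.963 for KLK2, 0.831 for KLK15, 0.734 for KLK4 and 0.0248 for KLK1. The value for KLK4 leaned on PBKi replicate 3, where KLK4 was at 57.3 CPM, against 69.3 to 75.4 CPM in the other PBKi libraries. DMSO replicate 5 went the other way, with the highest KLK4 of its group (87.6 CPM) but a low KLK3 (2696 CPM). PBKi replicate 3 was also the lowest PBKi library for KLK3, KLK2 and KLK15. Correlations without it were not computed for any gene, so how far the other values rest on it is not known. Among the 6555 genes compared in this way, whose mean log2 CPM was 5 or more, those most like KLK3 included MCCC2 (r = 0.942), a subunit of the carboxylase that breaks down leucine, SRSF9 (r = 0.902), a splicing factor, NAP1L1 (r = 0.902), a histone chaperone, and NUP133 (r = 0.901), a nuclear pore protein. PBKi replicate 3, which was lowest in KLK3, KLK2, KLK15 and KLK4, also had the largest share of reads outside annotated genes (9.30%, against 5.74% to 6.96% in DMSO), whose part in these values was not tested. PBKi replicate 6 had a share of 8.83%, with KLK3 at 1105 CPM and KLK2 at 173 CPM, and the part of the share was not tested there either. Without replicate 3 the log2 fold changes were -1.28 for KLK3, -1.35 for KLK2 and -0.52 for KLK15, and all 3 kept an adjusted p under 0.05.

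To see whether the fall was shared along the chromosome, the other genes starting within 500 kb of the kallikrein locus (which spans 265 kb) were examined. Of 43 such genes in the files 17 were tested, and 5 fell and 3 rose, with a median log2 fold change of -0.20. Over all genes tested, 21.5% fell and 20.1% rose. ACP4, a testicular acid phosphatase gene whose start lies at -64.5 kb from that of KLK3, averaged 0.993 ± 0.435 CPM in DMSO and 0.542 ± 0.188 CPM in PBKi (SD, n = 6 each). ACP4 thus had a log2 fold change of -0.87 (SE 0.293, adjusted p = 0.0243). C19orf48P, which lies between ACP4 and KLK1, averaged 491 ± 39.4 CPM in DMSO and 317 ± 35.3 CPM in PBKi (SD, n = 6 each). For this gene the log2 fold change was -0.63 (SE 0.0728, adjusted p = 2.64e-06). Small nucleolar RNA genes lie within it, so its reads are not certain to be its own. CLEC11A, a secreted growth factor gene, rose by 0.52 on the log2 scale (SE 0.156, adjusted p = 0.0131). Chosen after their values were seen, the other genes that fell were POLD1 (-0.46), VSIG10L (-0.35) and ETFB (-0.23), and NR1H2 (0.25) and JOSD2 (0.24) were the others that rose. No neighbour tested had a log2 fold change as low as KLK3 or KLK2, the lowest being -0.87.

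**Figure D3:**
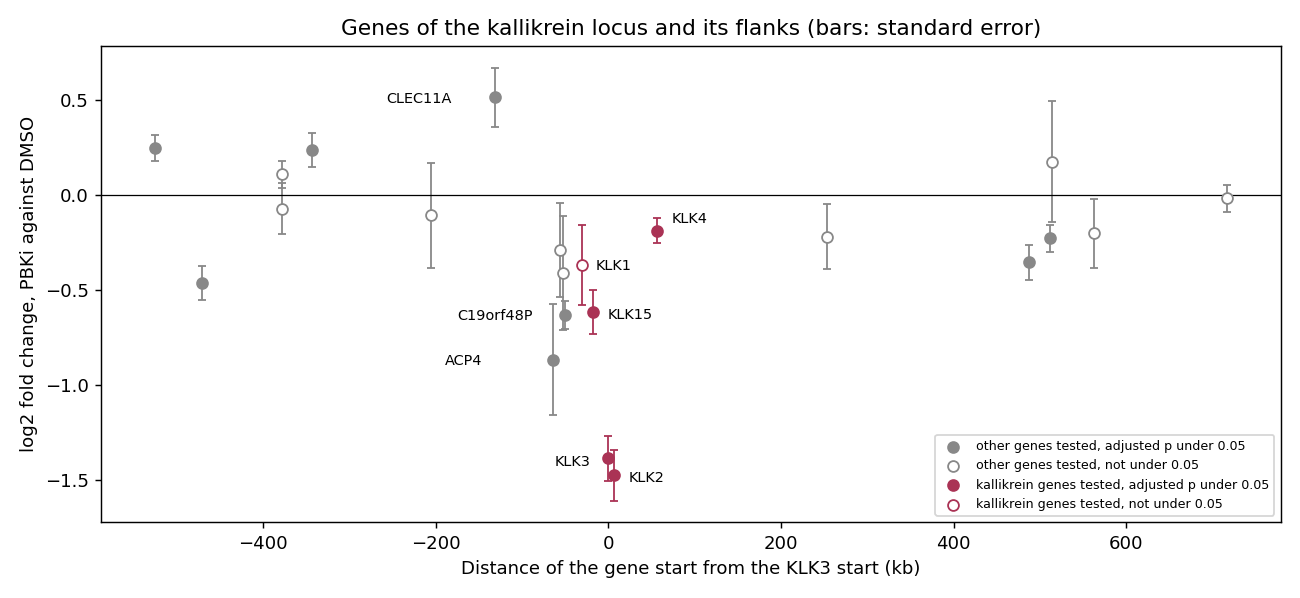
The log2 fold change of PBKi against DMSO (vertical axis, bars are standard errors) for each tested gene of the kallikrein locus and its flanks, by the distance of the gene start from the KLK3 start in kb. KLK3 (-1.39) and KLK2 (-1.48) stand below the kallikrein genes and neighbours on either side, whose log2 fold changes lay between -0.87 and 0.52.

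Factors known to act on the KLK3 and KLK2 genes were examined as transcripts. Of 8 transcriptional regulators 8 were tested, and 4 fell and 1 rose, with a median log2 fold change of -0.20, where 21.5% of all genes tested fell and 20.1% rose. HOXB13, a prostate homeobox factor, went from 302 ± 29.2 to 199 ± 27.4 CPM (SD, n = 6 each, log2 fold change -0.60, adjusted p = 2.61e-05). FOXA1, a pioneer factor that opens chromatin, fell by 0.34 on the log2 scale (adjusted p = 8.13e-05), and GATA2 by 0.32 (adjusted p = 0.000582). SPDEF, an epithelial ETS factor that is also an androgen-responsive gene, fell the most, from 134 ± 17.1 to 64.7 ± 10.8 CPM (log2 fold change -1.04, adjusted p = 3.86e-07). NCOA3, a coactivator of nuclear receptors, rose by 0.21 on the log2 scale (adjusted p = 0.0188).

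Androgen-responsive genes elsewhere in the genome fell too. Of 13 listed 12 were tested, and 10 fell and 0 rose, with a median log2 fold change of -0.58, where 21.5% of all genes tested fell and 20.1% rose. SPDEF and TMPRSS2 are each in another list as well. This list was chosen with earlier results of these samples known, and several of its genes had been picked by the study, so its count is not independent evidence of direction. TMPRSS2, a membrane protease whose promoter drives the common ERG fusion, went from 198 ± 32.5 to 84.1 ± 13.6 CPM (log2 fold change -1.24, adjusted p = 2.15e-07). ABCC4, an exporter of cyclic nucleotides, fell by 0.65 on the log2 scale (adjusted p = 7.95e-07) and FKBP5, a chaperone of steroid receptors, by 0.50 (adjusted p = 2.43e-06). STEAP2, a metalloreductase, was at 600 ± 89.5 and 626 ± 36.9 CPM (log2 fold change 0.06, adjusted p = 0.588).

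Transcripts of the proteins that activate, block or are cut by kallikreins are described next, and their counts are to be read against the 41.7% of all genes tested that were called in either direction. Of 5 serine proteases that can activate or process kallikreins or related precursors 4 were tested, and 2 fell and 0 rose: TMPRSS2, already described, and HPN (hepsin), which went from 66.9 ± 3.66 to 56.8 ± 5.30 CPM (log2 fold change -0.24, adjusted p = 0.00626). ST14 (matriptase) had a log2 fold change of -0.0097 (adjusted p = 0.929) and PRSS8 (prostasin) one of 0.14 (adjusted p = 0.112). Of 12 inhibitors 3 were tested, and 1 rose and 1 fell. Among those too low to be tested, SERPINA1, A2M and SPINK5, named after their values were seen, were higher in PBKi without overlap. They had 81, 45 and 43 reads over all libraries, and the other untested inhibitors overlapped. The groups did not overlap, with PBKi higher, for 10.5% of all genes tested. SERPINA3, the antichymotrypsin that forms the complex with KLK3 in blood, averaged 0.912 ± 0.202 CPM in DMSO and 5.00 ± 0.980 CPM in PBKi (SD, n = 6 each). SERPINA3 rose by 2.43 on the log2 scale (SE 0.178, adjusted p = 1.06e-08), and DMSO libraries (0.649 to 1.17 CPM) did not overlap PBKi libraries (3.29 to 6.31 CPM). SPINT2 fell by 0.15 on the log2 scale (adjusted p = 0.0283), and SPINT1 had a log2 fold change of 0.13 (adjusted p = 0.0948); both encode Kunitz-type inhibitors.

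Of 15 substrates and receptors 7 were tested, and 3 fell and 2 rose, with a median log2 fold change of -0.06. IGFBP3, a carrier of insulin-like growth factors that KLK3 can cut, averaged 15.2 ± 2.81 CPM in DMSO and 117 ± 39.3 CPM in PBKi (SD, n = 6 each), and rose by 2.96 on the log2 scale (SE 0.205, adjusted p = 5.20e-09). FN1, fibronectin, rose by 0.85 on the log2 scale (adjusted p = 8.49e-06). IGFBP2, another carrier of these factors, fell by 0.66 on the log2 scale (adjusted p = 4.96e-05). F2RL1, the protease-activated receptor PAR2, had a log2 fold change of -0.06 (adjusted p = 0.430). The other genes that fell, named after their values were seen, were DSG1 (-0.84) and F2R (-0.37). SEMG1 and SEMG2, the semenogelins, were not tested.

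**Figure D4:**
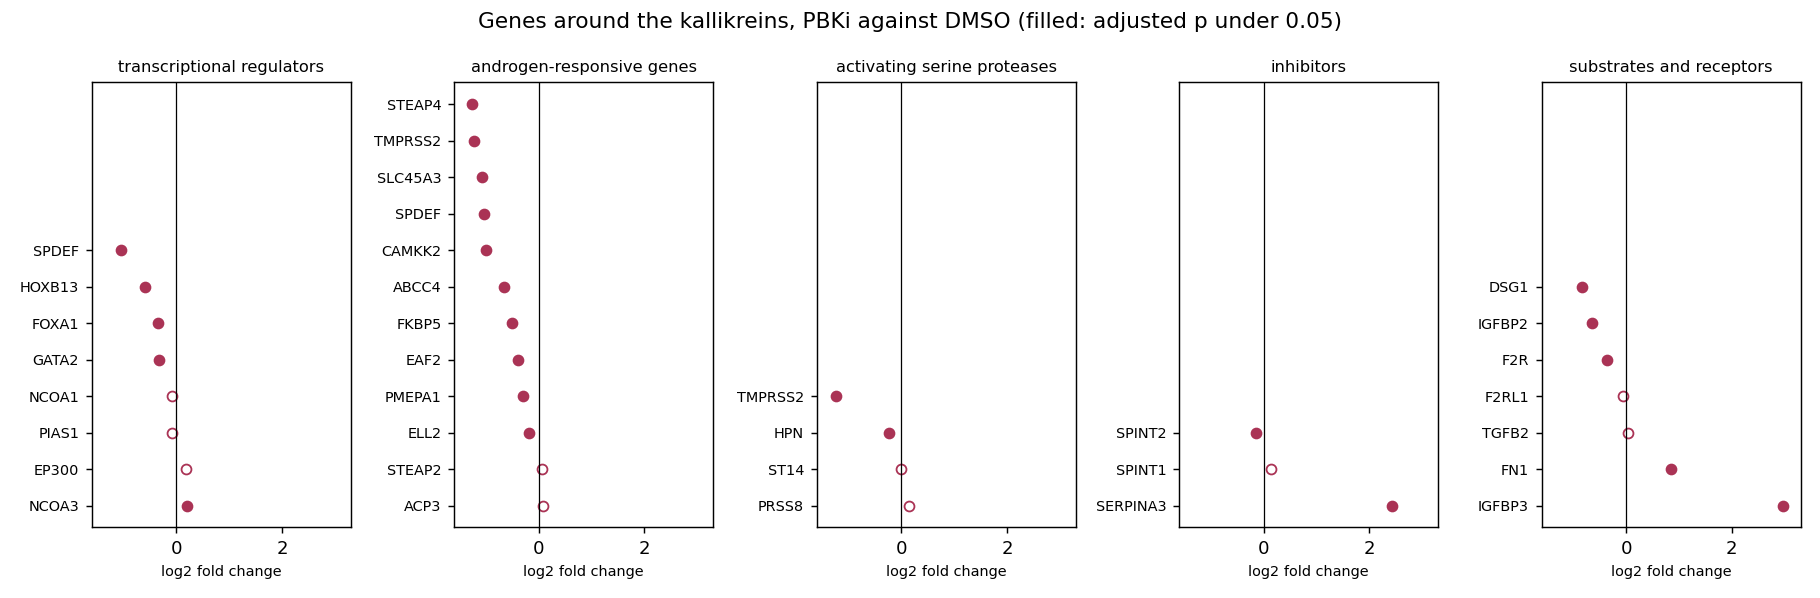
The log2 fold change of PBKi against DMSO for each tested gene of 5 lists around the kallikreins, with filled points for an adjusted p under 0.05. Androgen-responsive genes lie mostly below 0 (10 of 12 fell, against 21.5% of all genes tested), whereas inhibitors, substrates and receptors lie on both sides, with IGFBP3 (2.96) and SERPINA3 (2.43) furthest above.

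The cells carried the markers of luminal prostate epithelium. The 6 markers (FOXA1, HOXB13, KRT8, KRT18, EPCAM and CDH1) summed to 1497 to 1772 CPM in DMSO and 1328 to 1544 CPM in PBKi, and 3 of 6 fell: HOXB13, FOXA1 and KRT18. Among all genes tested 21.5% fell. Basal markers (KRT5, KRT14, TP63) summed to 1.10 to 1.73 CPM in DMSO and 0.665 to 1.5 CPM in PBKi, and moved in opposite ways. KRT14 fell by 0.73 on the log2 scale (adjusted p = 0.0126), and KRT5, too low to be tested, was at 0 in every DMSO library and between 0.148 and 0.312 CPM in PBKi. Leukocyte markers (PTPRC, CD3E, LYZ) summed to at most 0.0839 CPM in DMSO and 0.381 CPM in PBKi. Fibroblast markers (COL1A1, COL1A2, DCN, LUM) reached 17.5 to 22.7 CPM in DMSO and 16.8 to 21.4 CPM in PBKi, nearly all COL1A1, which did not pass the test (adjusted p = 0.380). Endothelial markers (VWF and CDH5, with PECAM1 not matched) reached 4.03 to 7.25 CPM in DMSO and 3.09 to 4.63 CPM in PBKi, nearly all VWF, which fell by 0.50 on the log2 scale (adjusted p = 0.0155). The part of these other markers in the kallikrein values was not tested. Less kallikrein RNA per cell and fewer cells of a kind cannot be told apart in these bulk samples.

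**Figure D5:**
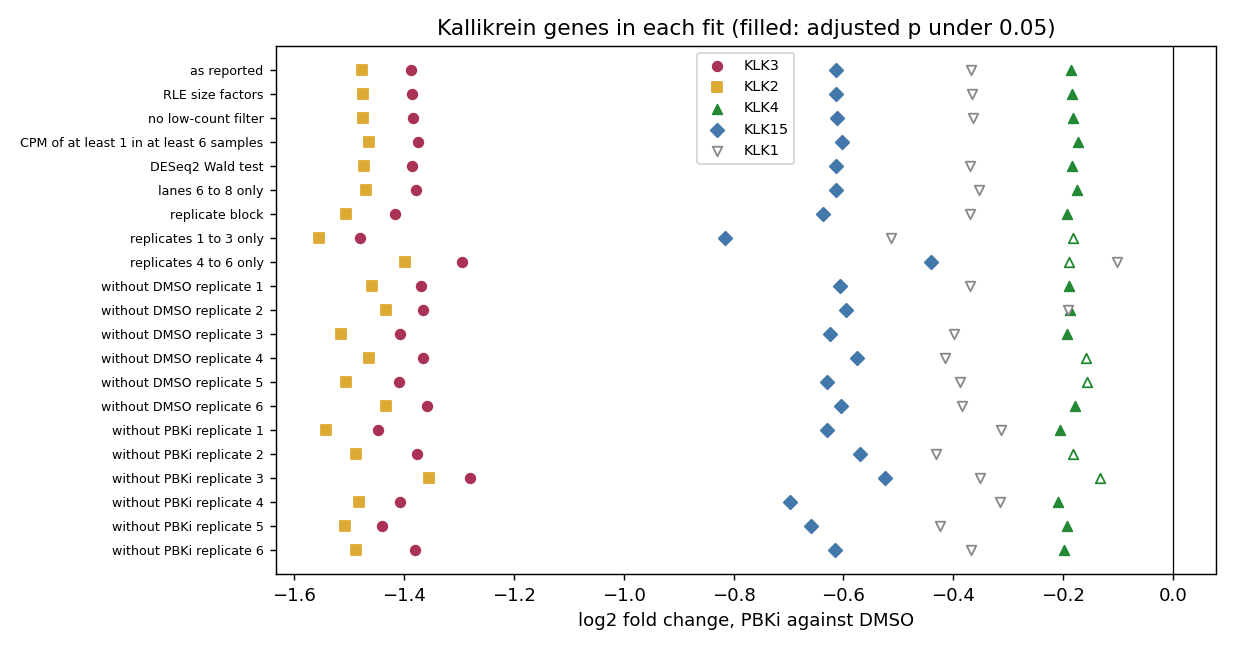
The log2 fold change of the 5 tested kallikrein genes (horizontal axis) in each fit listed on the vertical axis, from the reported fit to fits on other libraries, with filled symbols for an adjusted p under 0.05. KLK2, KLK3 and KLK15 are filled in every fit shown, KLK4 is open in 6 of them, and KLK1 is open in all that tested it.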

How the data were processed

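The authors aligned single-end 40-base reads to GRCh37 (annotation release 64) with TopHat2 2.0.4 and deposited raw read counts per gene from HTSeq 0.5.3p9, without normalisation, in 47 lane files. The submitters' notes name DESeq 1.10.1 for testing. TruSeq libraries were made with a kit taken here not to mark strand, and reads with several alignments were not counted. Lanes were summed per library (DMSO replicate 5 had 3 lanes, the others 4). HTSeq's total rows stayed out of library sizes; reads on genes ranged from 9663203 to 28029908 per library, and reads outside genes made up 5.74% to 9.30%. Replicates differed by more than sampling noise.

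Groups came from the labels. The 14505 genes that reached 10 counts in 6 or more libraries were fitted with edgeR 4.0.16 in R 4.3.3 (TMM, quasi-likelihood F test, Benjamini-Hochberg over all genes tested, 0.05, no covariates), and the standard error is the log2 fold change divided by the square root of F. Values are CPM; ratios (0.5 added to each count) were tested by exact permutation (924 arrangements). Counts were also simulated for this comparison (14346 genes). Of 100 genes changed by 0.75 (log2) 88% were recovered, and of 97 changed by 1.5 100% were. Among the calls, 4.15% were unchanged genes. In the data far more genes were called (41.7%), and no change as small as that of KLK4 was simulated, so these rates need not hold here. Symbols and positions came from GENCODE 44 lifted to GRCh37 (47098 of 54127 genes matched), promoters from RefSeq, compared with Biopython 1.88. Alternatives were DESeq2 1.42.0, RLE factors, other filters, lanes 6 to 8, a replicate block, replicates 1 to 3 or 4 to 6, and leaving out each library.

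The members, lists and tests were chosen with earlier results of these data known. Named genes were the kallikreins, up to 4 genes per list with the highest CPM, called regulators, the 3 called neighbours with the largest change and the 5 genes most like KLK3, of which 1 is not reported here, nor are 2 listed genes, which were left out of the list counts. The siPBK arm was not analysed here. The labels mention flow-sorted cells and another extraction kit than the study's methods.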

Additional observations from a re-analysis of the deposited data

Results flagged for a closer look

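Among 18 groups of 6 values examined (the CPM of the 5 tested kallikrein genes and their ratios to KLK3 in each condition), 3 held a library further from the others than Dixon's 95% limit for 6 values, where chance alone gives about 1 in 20. KLK1 was highest in DMSO replicate 2, at 1.88 CPM, with the other DMSO libraries between 0.900 and 1.10 CPM. KLK2 was lowest in PBKi replicate 3, at 93.9 CPM, with the others between 169.6 and 203 CPM. KLK4 was lowest in the same library, at 57.3 CPM, with the others between 69.3 and 75.4 CPM.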

How the results depend on the processing

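KLK2, KLK3 and KLK15 kept their direction and an adjusted p under 0.05 in all settings run, and KLK1 kept its direction and stayed over 0.05. Leaving out 1 library at a time gave log2 fold changes of -1.45 to -1.28 for KLK3, -1.54 to -1.35 for KLK2, -0.70 to -0.52 for KLK15, -0.43 to -0.19 for KLK1 and -0.21 to -0.13 for KLK4, whose adjusted p then ran from 0.0267 to 0.0783. KLK4 also lost its call in replicates 1 to 3 (-0.18) and in replicates 4 to 6 (-0.19), with fewer samples. The number of kallikrein genes that fell was 3 or 4. Over all genes, replicates 4 to 6 alone gave 1207 lower and 1273 higher, against 3125 and 2921. Of the genes near the locus, 8 were called in the reported fit, 5 with lanes 6 to 8 only and 3 with replicates 4 to 6 only, and the cause was not tested for the lanes. Leaving out a library gave differences in the log2 ratio to KLK3 of -0.11 to -0.065 for KLK2, 1.15 to 1.28 for KLK4, 0.74 to 0.83 for KLK15 and 0.96 to 1.21 for KLK1. The KLK2 ratio had exact p = 0.0476 without PBKi replicate 2 (-0.11). Within 3 against 3 no exact p can go below 0.10, and the ratios were 1.35 and 1.11 for KLK4, 0.72 and 0.85 for KLK15 and 0.97 and 1.18 for KLK1 in replicates 1 to 3 and 4 to 6.

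Same-numbered libraries deviated together by correlations of 0.0887 to 0.299. As 5 of 6 and not all were over 0.1, they were not taken as pairs in the reported fit. Against this choice, 4 of the 6 DMSO libraries matched their own number best, so a pairing remains possible. With the replicate block 4 kallikrein genes fell as before, KLK4 with an adjusted p of 0.00606 against 0.0312. Of all genes 3803 fell and 3485 rose with the block, against 3125 and 2921 without it. By sign changes of the same-numbered differences the KLK2 ratio of -0.089 had exact p = 0.0312, the smallest that 6 pairs can give. The KLK11 ratio was not run, as KLK11 had 0 or 1 reads per library. The per-kb levels and all KLK1 ratio alternatives were added after the data were seen; lengths of all exons gave DMSO levels of 638, 72.7, 39.9, 2.79 and 0.484 CPM per kb for KLK3, KLK2, KLK4, KLK15 and KLK1.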
